A study of Mus musculus with 18 samples.

Results

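MiR-204 and miR-211 are a pair of closely related microRNAs, each cut from an intron of a TRPM cation channel gene, miR-204 from Trpm3 and miR-211 from Trpm1. The rows described here are the 5p and 3p arms of both hairpins (mmu-miR-204-5p, mmu-miR-204-3p, mmu-miR-211-5p and mmu-miR-211-3p, written below without the mouse prefix), 4 of the 1431 mature miRNAs in the tables, chosen by name and followed through all 18 libraries. The libraries are small RNA sequencing of the left eye, right eye, left lung, right lung, left testicle and right testicle of male C57BL/6 mice aged 8 to 12 weeks, with 3 libraries in each of the 6 groups and no treatment or genetic change named in the labels. The samples are whole organs, and no label ties a left library to a right one or to an animal. Should both organs of a mouse be present, n = 6 for an organ overstates the replication, and the p values then measure only the spread between these samples. Eye libraries held 2451484 to 2680204 counts, lung libraries 2538402 to 2790471 and testicle libraries 952608 to 1893132.

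A miRNA hairpin yields a duplex of a 5p and a 3p strand, and usually one strand is loaded into an Argonaute protein while the other is degraded. The loaded strand finds its target messenger RNAs mainly through its seed, bases 2 to 8. In the eye both miRNAs are best known from the retinal pigment epithelium, the pigmented layer that services the photoreceptors, where the transcription factor MITF promotes the expression of both, and miR-211 is also a miRNA of melanocytes. MiR-204 is in addition known from the lens, the ciliary body and the choroid plexus of the brain. The tables hold miRNAs and no messenger RNA, so pigment cell genes and the host transcripts could not be checked, and the name pigment epithelium is not tested by these data.

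The mature sequences, from RefSeq on build GRCm38.p6, are shown first because the arms' counts depend on telling them apart. They are written 5′ to 3′ with the seed in capitals.

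miR-204-5p: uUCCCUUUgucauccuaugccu

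miR-211-5p: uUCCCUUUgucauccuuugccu

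miR-204-3p: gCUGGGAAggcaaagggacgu

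miR-211-3p: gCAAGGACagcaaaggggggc

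The 5p arms share the seed and are identical at 21 of 22 positions. The remaining position is A17U, counted from 1 at the 5′ end with the miR-204-5p base first. A read that ends before this base cannot be assigned to one of the pair, and a misread of it can make a read match the other member. How such reads were counted is not known from the sources used here. The 3p arms have different seeds and differ at 7 of 21 positions. Outside the family, the nearest mature miRNA in the RefSeq table lay 7 edits from either 5p arm, 6 from miR-204-3p and 5 from miR-211-3p. MiR-7670-3p shares the seed of the 5p arms and miR-7684-5p that of miR-204-3p in the RefSeq table, and neither was analysed here.

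The hairpins follow, with both arms in capitals, to show where each arm sits.

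Mir204: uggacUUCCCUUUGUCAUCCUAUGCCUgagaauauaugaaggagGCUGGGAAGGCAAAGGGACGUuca

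Mir211: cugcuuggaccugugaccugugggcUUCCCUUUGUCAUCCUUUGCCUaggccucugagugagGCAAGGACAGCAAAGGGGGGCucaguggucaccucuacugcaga

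Mir204 lies at chr19:22750605-22750672 on the plus strand, and Mir211 at chr7:64205806-64205911, also on the plus strand. In the GENCODE M21 annotation Mir204 was intronic in 18 transcripts of Trpm3 and exonic in 0, most often in intron 6, which is 33462 bases long in 14 of them. Mir211 was intronic in 12 transcripts of Trpm1 and exonic in 0, in intron 6 in 8 of them, and the intron around it was 3682 bases long in 9. Both lie on the strand of their host.

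MiR-204-5p, the main strand of its hairpin, was among the most abundant miRNAs of the eye. It had 130932, 120288 and 127928 counts in left eyes 1 to 3 and 129462, 128977 and 123679 in right eyes 1 to 3. In the testicle it had 9825, 16893 and 15097 counts on the left and 24001, 22394 and 25071 on the right. In the lung it had 479, 1598 and 497 counts on the left and 3350, 477 and 431 on the right. The eye libraries lay close together, every testicle library lay below every eye library, and every lung library lay below both. How many of all miRNAs separate the organs without overlap, here and below, was not counted. Among the lungs, right lung 1 and left lung 2 stood above the other 4. As a share of library counts miR-204-5p held 4.99% ± 0.151 (SD, n = 6) in the eye, 1.26% ± 0.218 in the testicle and 0.0431% ± 0.0452 in the lung. By mean share it ranked 1 of 1431 in the eye, 23 in the testicle and 119 in the lung.

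MiR-211-5p had the same seed but a narrower distribution. It had 95333, 87318 and 101136 counts in left eyes 1 to 3 and 91841, 99891 and 91225 in the right eyes. In the lung it had 110, 287 and 133 counts on the left and 888, 210 and 80 on the right. In the testicle it had 315, 489 and 196 counts on the left and 181, 479 and 101 on the right. The eye stood far above both other organs, and the counts of lung and testicle overlapped. It held 3.72% ± 0.193 of eye counts (SD, n = 6; rank 7), 0.0206% ± 0.0109 of testicle counts (rank 182) and 0.0108% ± 0.0118 of lung counts (rank 178).

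The 3p arms, the strands that are usually discarded, were minor in every library. MiR-204-3p had 1504, 947 and 1438 counts in the left eyes and 811, 1119 and 959 in the right eyes. It had 27, 30 and 32 counts in the left testicles and 49, 50 and 7 in the right ones. In the lung its counts were 0, 4 and 1 on the left and 0, 1 and 0 on the right. The 3 organs did not overlap in share of counts, and right testicle 3 was the lowest of the testicles. MiR-211-3p had 164, 127 and 214 counts in the left eyes and 134, 128 and 34 in the right eyes. It had 0 counts in all 6 lungs and in 4 testicles, and 1 count each in left testicle 1 and right testicle 2. The limit that a count of 0 sets was taken as 3 counts, or 1.08 to 1.18 counts per 1000000 library counts (CPM) in the lungs, and it covers counting error only. Right eye 3 was the lowest eye library for miR-211-3p, while its miR-211-5p lay inside the range of the other eyes.

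**Figure D1:**
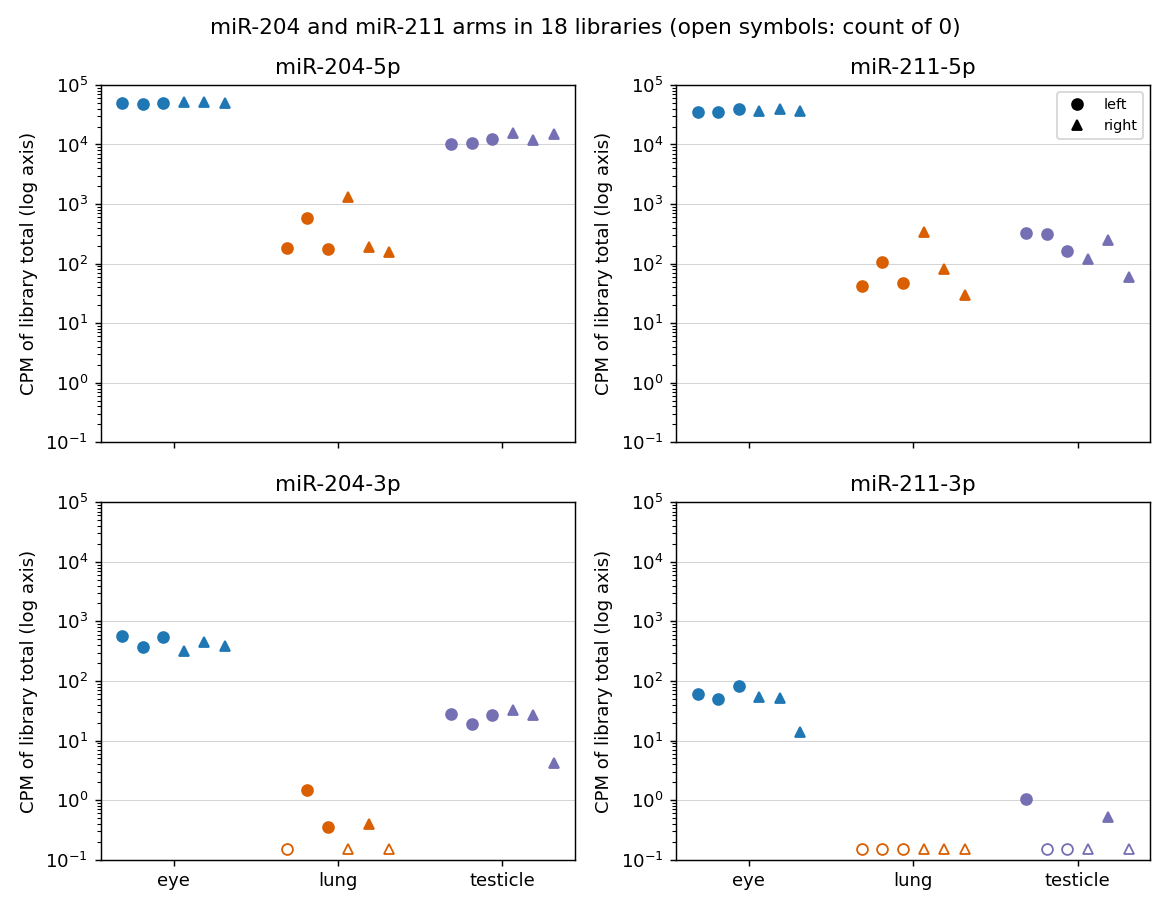
CPM of the library total for the 4 arms (log axis), 1 point per library, left as circles and right as triangles, with open symbols at the bottom for a count of 0. The eye is highest for each arm, miR-204-5p is high in the testicle as well, and miR-211-5p is low in lung and testicle alike.

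The comparison of eye and lung asked how far the family sets these organs apart. It was tested with edgeR's quasi-likelihood test over the 642 miRNAs that passed the low-count filter, with Benjamini-Hochberg adjustment. The eyes averaged 48430.4 ± 4480 CPM of miR-204-5p (scaled by TMM, the trimmed mean of M values; SD, n = 6) and the lungs 401 ± 457. This is a log2 difference of 6.99 (SE 0.58; adjusted p 1.2e-08 by edgeR). For miR-211-5p the means were 35997 ± 3057 and 102 ± 121 CPM, and the log2 difference was 8.63 (SE 0.64; adjusted p 3.8e-09 by edgeR). Both 5p arms were higher in every eye than in any lung, and the share of all miRNAs that separate in this way was not counted. Called by edgeR were 59.8% of all tested miRNAs, 35.4% higher and 24.5% lower in the eye. The means of miR-204-3p were 425 ± 76.8 and 0.313 ± 0.474 CPM, with a log2 difference of 10.40 (SE 0.64; adjusted p 4.0e-10 by edgeR). MiR-211-3p, with 801 counts over the eyes and 0 over the lungs, was at least 279.7-fold higher in the eye against a floor of 3 counts over the 6 lungs. MiR-211-3p passed the filter only through the eye and miR-204-3p through eye and testicle, so the calls of the 3p arms add no support.

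Between eye and testicle the pair came apart. The testicles averaged 15089.7 ± 4478 CPM of miR-204-5p (SD, n = 6), and the eye exceeded them by 1.71 on the log2 scale (SE 0.45; adjusted p 0.0025 by edgeR). For miR-211-5p the testicles averaged 229 ± 103 CPM, and the eye exceeded them by 7.32 (SE 0.61; adjusted p 9.7e-09 by edgeR). Among all tested miRNAs 79.3% were called between eye and testicle, 40.2% higher in the eye and 39.1% lower. With right libraries alone the miR-204-5p difference was 1.47 (adjusted p 0.0977 by edgeR). MiR-204-3p averaged 26.6 ± 13.2 CPM in the testicles, a log2 difference of 4.0 (SE 0.44; adjusted p 3.2e-07 by edgeR). MiR-211-3p, with 801 counts over the eyes and 2 over the testicles, was 232-fold higher in the eye by library totals (95% exact binomial counting interval 64.1 to 1921).

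Between lung and testicle, miR-204-5p was lower in the lung, by a log2 difference of -5.28 (SE 0.53; adjusted p 1.2e-07 by edgeR). Every lung library lay below every testicle library, and the share of all miRNAs that separate in this way was not counted. Among all tested miRNAs 76.5% were called between lung and testicle, 49.1% lower in the lung and 27.4% higher, around a median log2 value of -0.90. The difference for miR-211-5p was -1.31 (SE 0.47; adjusted p 0.0187 by edgeR). That call did not hold under other scalings: the adjusted p was 0.0777 with relative log expression, 0.0643 with library sizes alone, and 0.180 and 0.116 with left lung 1 and left testicle 1 as the TMM reference library. With the right libraries alone it was 0.716. Leaving out a single library ended the call for left lung 3 (edgeR adjusted p 0.0550), right lung 2 (0.0524), right testicle 2 (0.0804) and right eye 2 (0.215), while without right lung 1 the difference was -2.09. Without both right lung 1 and left lung 2, the lungs highest in miR-211-5p, the difference was -1.87 (edgeR adjusted p 0.00017). Leaving out the highest values of the lower organ favours a larger difference, so this setting adds no support. MiR-204-3p had a log2 difference of -6.40 (SE 0.61; adjusted p 6.9e-08 by edgeR). It had 6 counts over the lungs and passed the filter only through eye and testicle, so this call adds no support. MiR-211-3p was at or below 3 counts over each of these organs, and no fold is given.

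Because the 5p arms carry the same seed, their counts were also summed. This pool held 8.71% ± 0.307 of counts in the eye (SD, n = 6), 1.29% ± 0.207 in the testicle and 0.0539% ± 0.0567 in the lung. On the log2 scale the eye exceeded the lung by 7.85 and the testicle by 2.77, and the lung minus testicle difference was -5.07. Each difference had p = 0.00216 by a two-sided exact permutation test of 6 against 6 libraries, which is the smallest that test can give, and Benjamini-Hochberg adjustment over the 3 organ pairs left it unchanged. With the sides taken alone, 3 against 3, the exact permutation test cannot go below 0.10.

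The make-up of that pool differed between organs. In the eye there were 1.26 to 1.41 counts of miR-204-5p for each count of miR-211-5p, and miR-211-5p supplied 41.5% to 44.2% of the pool. In the lung the ratio was 2.27 to 5.57 and the share of miR-211-5p 15.2% to 30.6%. In the testicle the ratio was 31.2 to 248 and the share of miR-211-5p 0.401% to 3.11%. The 3 organs did not overlap, and the spread was tightest in the eye and widest in the testicle. The log2 ratio averaged 0.43 ± 0.06 for eyes, 2.00 ± 0.47 for lungs and 6.15 ± 1.18 for testicles (SD, n = 6 each). All 3 differences between organs had p = 0.00216 by the two-sided exact permutation test, the smallest it can give, and 0.00216 after adjustment over the 3. The ratio is taken inside a library, so it does not depend on the scaling between libraries. Different miRNAs are captured with different efficiency in library preparation, so the ratio compares organs and is not a ratio of molecules. Whether some miR-211-5p counts of the testicle are misread miR-204-5p was not tested.

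**Figure D2:**
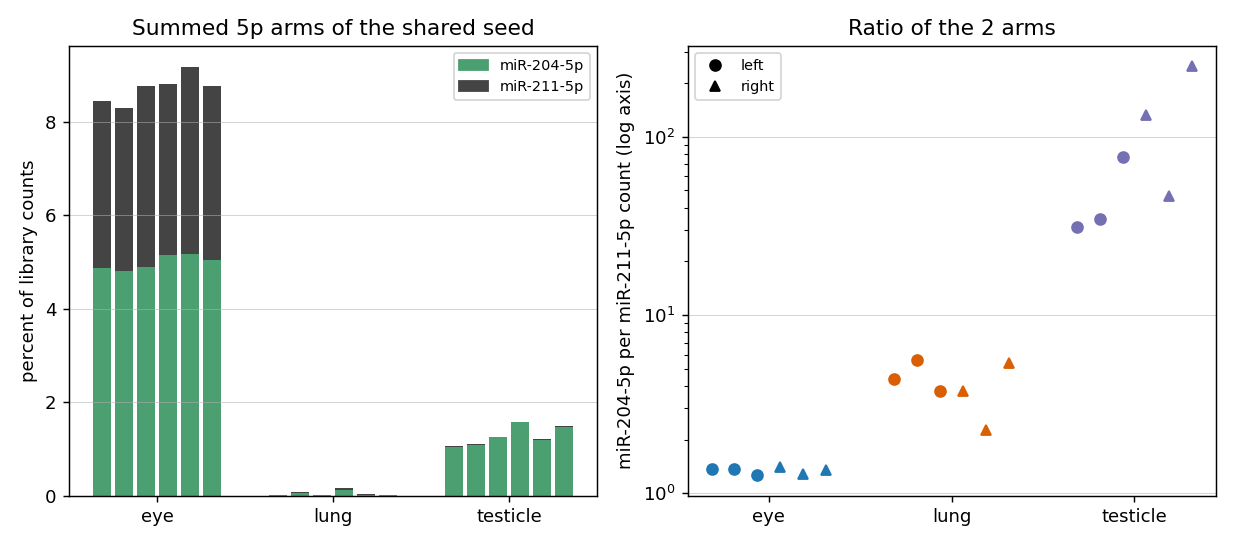
Left, percent of library counts held by miR-204-5p and miR-211-5p stacked, 1 bar per library. Right, counts of miR-204-5p per count of miR-211-5p (log axis), left as circles and right as triangles. The arms are near balance in the eye, while the testicle pool is nearly all miR-204-5p.

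The balance of the arms within a hairpin also differed for miR-204. Of the counts of its hairpin, the 3p arm held 1.14%, 0.781% and 1.11% in left eyes 1 to 3 and 0.623%, 0.860% and 0.769% in right eyes 1 to 3. In the left testicles it held 0.274%, 0.177% and 0.212%, and in the right testicles 0.204%, 0.223% and 0.0279%. The highest testicle library, with a 95% Wilson interval of 0.188% to 0.398%, lay below the lowest eye library, with 0.581% to 0.667%. Here and below, Wilson intervals cover counting error only. Same-group libraries differed by more than counting error, with a chi-square per degree of freedom of 63.9 to 612 across miRNAs. Summed over 6 libraries the 5p arm had 112 counts for each 3p count in the eye and 581 in the testicle. At the lowest share of any eye library, the 113476 hairpin counts of the testicle would hold 706 counts of the 3p arm, and 195 were counted.

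Arm ratios were tested with limma over the 191 hairpins whose arms both passed the filter, as log2 of the 5p over the 3p count with 0.5 added to each. For miR-204 the ratio was lower in the eye than in the testicle by a log2 difference of -2.47 (SE 0.63; limma adjusted p 0.0066). Against the lung the difference was -2.74 (SE 0.63; limma adjusted p 0.0061). Over all hairpins, eye against testicle called 27.7% (13.1% with a higher and 14.7% with a lower ratio in the eye), and eye against lung 16.8% (7.33% and 9.42%). The miR-204 ratio did not pass between lung and testicle (log2 difference 0.28; limma adjusted p 0.801), where 37.2% of hairpins were called (18.3% higher and 18.8% lower in the lung). With 5 added in place of 0.5 the eye and lung difference was -0.26 (limma adjusted p 0.766), where the 6 lungs hold 6 counts of the 3p arm in all. Lung against testicle was then -1.95 and passed (limma adjusted p 0.0041), opposite in sign to the 0.28 above, so no direction is read from it. With the right libraries alone the limma adjusted p was 0.135 against the testicle and 0.180 against the lung.

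Among the lungs, right lung 1 had the most counts of the miR-204 hairpin. Right lung 1 had 0 counts of the 3p arm among 3350 of the hairpin, which allows a share of up to 0.0896%, below the lowest eye share of 0.623%. At that lowest eye share, 20.9 counts would be present. Left lung 2 had 4 of 1602 (0.250%, 95% Wilson interval 0.0971% to 0.640%), and this interval reached into the eye's range. The other lungs had 431 to 498 hairpin counts, and a difference from the eye was not detectable in any one of them at that depth. Summed over the 6 lungs the 3p arm had 6 of 6838 counts (0.0877%, 95% Wilson interval 0.0402% to 0.191%), and 42.6 would be present at the lowest eye share. Right lung 1 alone supplied 3350 of these 6838 counts, and the interval leaves out the spread between libraries.

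For miR-211 the 3p arm held 0.172%, 0.145% and 0.211% of hairpin counts in the left eyes and 0.146%, 0.128% and 0.0373% in the right eyes. Right eye 3 fell outside the Wilson intervals of the other eyes. Outside the eye the hairpin had at most 888 counts in a library, too few to show or exclude a share like that of the eye, and the limma adjusted p was 0.313 for eye against lung and 0.138 for eye against testicle. For the lungs together 0 counts came from the 3p arm among the 1708 of the hairpin, which allows up to 0.176%, and the eye as a whole had 0.141%.

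**Figure D3:**
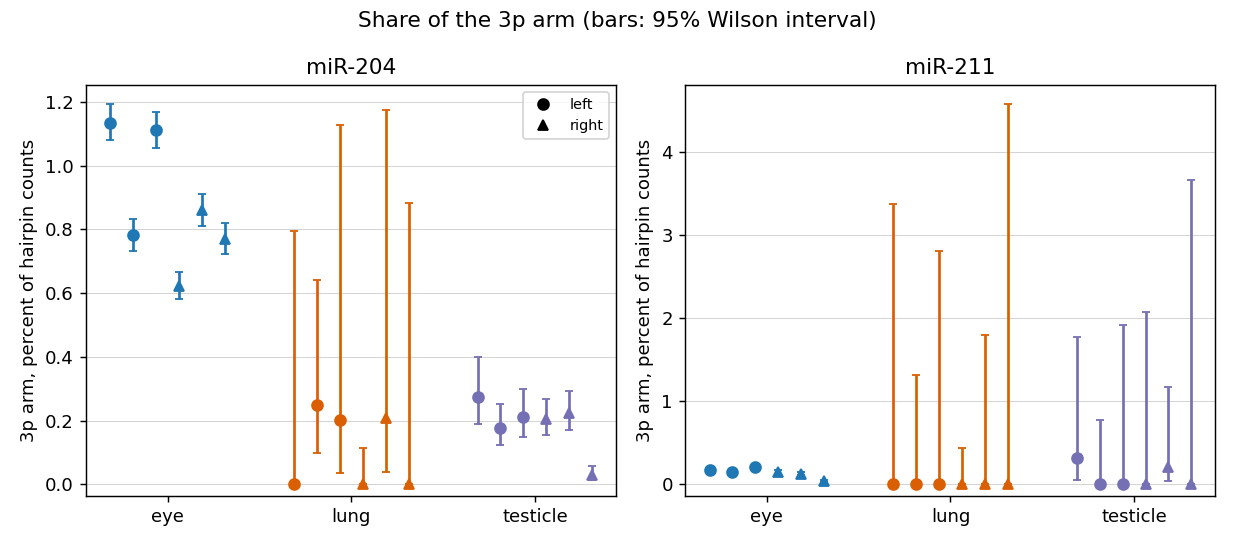
Share of the 3p arm in the counts of each hairpin, as percent, 1 point per library with its 95% Wilson interval (counting error only), left as circles and right as triangles. For miR-204 the testicle lies below the eye, and for miR-211 the intervals outside the eye are too wide for a comparison.

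Levels in lung and testicle were then set against miRNAs of other ocular cells, as a percent of each miRNA's mean share in the eye. In right lung 1, the lung with most of both 5p arms, miR-204-5p stood at 2.58% of its eye mean and miR-211-5p at 0.920%. In that library miR-183-5p, of photoreceptors and other sensory cells, stood at 6.61%. MiR-184-3p, of lens and cornea, stood at 0.380% and the neuronal miR-124-3p at 0.209%. MiR-206-3p, of skeletal muscle, stood at 0.224%. MiR-204-3p was at 0, which allows up to 0.261% of its eye mean. MiR-205-5p, of corneal and other stratified epithelium, was lowest in right lung 1 (0.141%) and highest in left lung 2 (4.95%). The ocular miRNAs stood at unequal shares of their eye level in right lung 1, as they did in the other lungs. There miR-183-5p stood at 1.54% to 4.19%, miR-204-5p at 0.316% to 1.18% and miR-211-5p at 0.0787% to 0.284%. MiR-184-3p stood at 0.0176% to 0.255% there, miR-124-3p at 0.0173% to 0.397% and miR-206-3p at 0.0344% to 0.118%. The source of these counts was not tested. Right lung 1 was also the highest lung for miR-184-3p, miR-183-5p and miR-206-3p, and left lung 2 the highest for miR-124-3p. Other members of the marker lists described below were low in right lung 1. In TMM-scaled CPM its miR-182-5p was 600 beside a lung mean of 990, and its miR-133a-3p 3.09 beside 28.4. By summed list it ranked 1 among the lungs for the sensory and neural lists, 4 for striated muscle and 5 for lens and cornea. The neural sum was nearly all miR-181a-5p, with 123232 counts in right lung 1. The other neural members there were miR-124-3p (230 counts), miR-9-5p (42), miR-9-3p (18) and miR-124-5p (0). Left lung 2 had 457, 52, 10 and 2 counts of these members, so the neural rank reflects miR-181a-5p. MiR-183-5p, miR-184-3p, miR-124-3p, miR-9-5p and miR-206-3p were above 0 in every library.

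All members of the marker lists behind these values were in the tables. The sensory list, the arms of miR-183, miR-96 and miR-182 (6 of 6 members higher in the eye than in the lung, edgeR) had a summed level of 109023 to 124881 CPM of the library total in eyes, 2513 to 4702 in lungs and 1001 to 2549 in testicles. The lens and cornea list, the arms of miR-184, miR-205 and miR-203 (5 of 6 higher) summed to 41288 to 46952, 307 to 534 and 5109 to 11231. The striated muscle list, of miR-1a, miR-133, miR-206 and miR-499 (5 of 5 higher) summed to 7095 to 13361, 72.8 to 635 and 888 to 1183. The neural list, of miR-124, miR-9 and miR-181a-5p, had 4 of 5 higher and summed to 85507.7 to 119459 CPM in the eyes, 35726.9 to 47562.6 in the lungs and 12845.7 to 13828.8 in the testicles, with the broadly expressed miR-181a-5p included. Eye against lung, the lists had median log2 differences of 5.52, 6.77, 5.44 and 9.69 in this order, beside 0.00 over all tested miRNAs. The gonadal and germ cell list summed to 88638 to 97629 CPM of the library total in the testicles. It summed to 119 to 1101 in the lungs and 25.0 to 72.0 in the eyes, and right lung 1 was its lowest lung. The lung sum was mostly miR-34c-5p, which averaged 553 TMM-scaled CPM in the lungs. The other members, miR-202-5p, miR-871-5p, miR-743a-3p, miR-741-3p and miR-470-5p, averaged 0.951 to 45.8 there. The lung epithelium and endothelium list and the leukocyte list each had 3 of 3 members called higher in lung than in eye. Of all tested miRNAs 35.4% were called higher and 24.5% lower in the eye in this comparison. The part of these cell types in the lung counts of miR-204-5p and miR-211-5p was not tested. Without right lung 1 and left lung 2 the eye exceeded the lung by 7.67 for miR-204-5p and 9.08 for miR-211-5p on the log2 scale. These lungs were the highest for both arms, so leaving them out favours a larger difference.

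In the testicle miR-204-5p stood at 20.7% to 31.4% of its eye mean, and miR-184-3p at 7.64% to 23.7%. Of the other ocular miRNAs taken here, miR-124-3p stood at 2.19% to 4.8%, miR-183-5p at 0.891% to 2.39% and miR-206-3p at 0.0344% to 0.427%. Not all members of the marker lists were low in the testicle. In TMM-scaled CPM miR-181a-5p averaged 13461.1 in testicles against 46281.5 in eyes, miR-1a-3p 766 against 2666 and miR-203-3p 1678 against 340. MiR-9-5p, with 401 against 8235, and miR-205-5p, with 2.57 against 781, were low. MiR-204-3p stood at 0.935% to 7.25%. The lowest miR-204-5p value was above the highest value of miR-124-3p, miR-183-5p, miR-206-3p and miR-211-5p. MiR-211-5p stood at 0.161% to 0.890% of its eye mean, and left testicles 1 and 2 were its highest libraries, as they were for miR-183-5p, miR-124-3p and miR-206-3p. Right testicle 3 was the lowest testicle for miR-211-5p, miR-204-3p, miR-183-5p, miR-124-3p and miR-206-3p, and had the highest count of miR-204-5p, though not the highest share. Other ocular miRNAs had another order. MiR-9-5p was lowest in right testicle 1 (3.45% of its eye mean) and miR-184-3p in left testicle 2 (7.64%). For the summed striated muscle list right testicle 3 ranked 1 among the testicles, and for the sensory list 6. The part of other cells or tissue in the testicle counts of miR-211-5p was not tested.

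**Figure D4:**
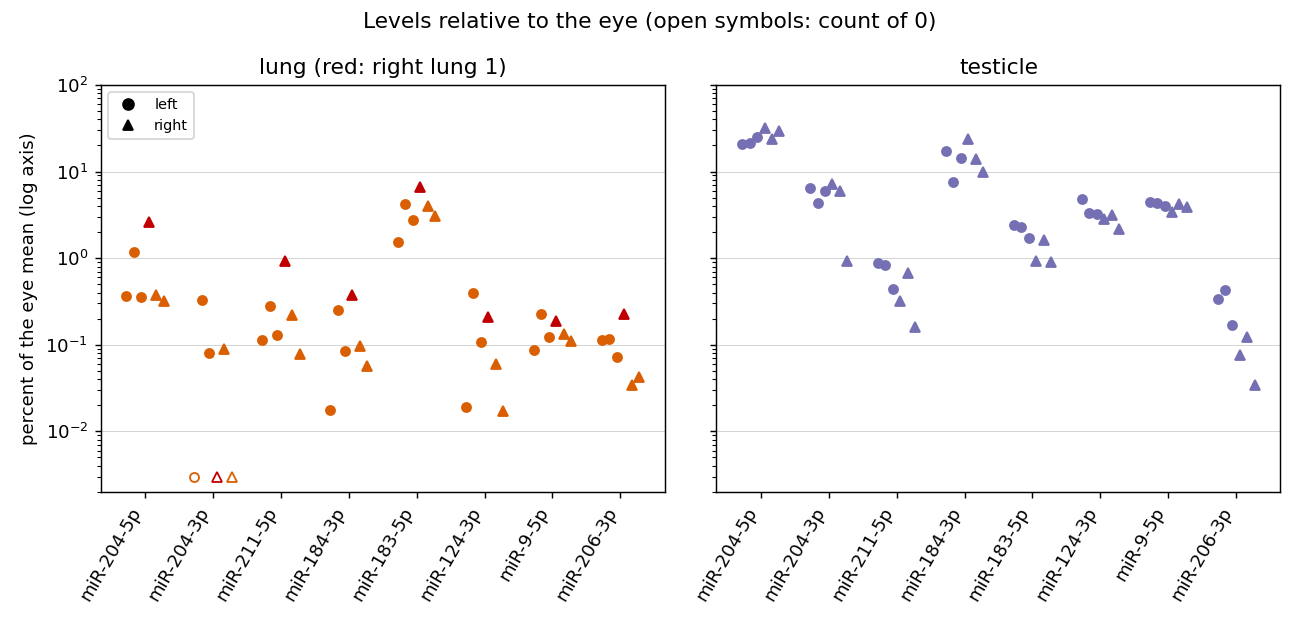
Level in each lung (left panel) and testicle (right panel) library as a percent of the mean share of the same miRNA in the eye (log axis), circles for left and triangles for right, red for right lung 1, open symbols for a count of 0. MiR-204-5p and miR-184-3p stand above the other miRNAs shown in the testicle, and in the lungs, right lung 1 included, the miRNAs lie at unequal heights.

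Other miRNAs known from pigment epithelium had another distribution. Of miR-187-3p, miR-187-5p, miR-221-3p and miR-222-3p, edgeR called 0 of 4 higher and 3 lower for eye against lung, beside 35.4% and 24.5% of all tested miRNAs. The means of miR-222-3p were 344 ± 37.3 CPM for eyes and 1777 ± 316 for lungs (TMM-scaled; SD, n = 6). MiR-187-3p had 592 ± 47.6 against 772 ± 128 (edgeR adjusted p 0.378). All 4 were called higher in the eye than in the testicle, as were 40.2% of all tested miRNAs. These miRNAs are expressed in many cell types, and in whole organs fewer cells of a type and less RNA per cell cannot be told apart.

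Over the 18 libraries the level of miR-204-5p was most like that of miR-184-3p (Pearson r 0.99 of log2 CPM), miR-129-5p (0.97) and miR-499-5p (0.96). MiR-211-5p was most like miR-384-3p (0.99), miR-206-3p (0.99) and miR-384-5p (0.98). MiR-204-3p was most like miR-9-5p (0.98), and miR-211-3p most like miR-384-3p (0.98). These values describe 3 clusters of 6 libraries, one per organ, and so mostly the order of the organs. Within the 6 eye libraries miR-204-5p was most like miR-183-5p (r 0.98), miR-181a-5p (0.96) and miR-182-5p (0.96), abundant miRNAs that share the scaling factor of each library. MiR-211-5p was most like miR-196a-5p (0.97) and miR-204-5p (0.90) there. As a share of library counts, miR-204-5p varied by a coefficient of variation of 3.03% among eyes and miR-211-5p by 5.20%, while their 3p arms varied by 21.9% and 42.4%.

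The sides were then compared, organ by organ, on 6 libraries each. In the eye, miR-204-5p held 4.89%, 4.81% and 4.90% of counts on the left and 5.15%, 5.17% and 5.05% on the right, so that every right eye was above every left eye. The log2 difference of left minus right was -0.21 (SE 0.11; edgeR adjusted p 0.982), with 0% of all 487 tested miRNAs called in either direction. As a share of counts miR-211-5p overlapped between the sides. TMM-scaled, its left eyes had 34200.1, 33204 and 32753 CPM and its right eyes 36966, 39999 and 38862, without overlap (log2 difference -0.20, SE 0.11; edgeR adjusted p 0.982). How many of the 487 tested miRNAs separate the sides without overlap was not counted for either measure, so no side difference is read from it. MiR-204-3p and miR-211-3p had log2 differences of 0.21 (SE 0.22) and 0.58 (SE 0.43), and no arm passed. At an unadjusted p under 0.05 there were 18 miRNAs, none of them a member of the family, and DESeq2 called 1 miRNA over the whole table.

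In the lung the left minus right log2 difference was -1.23 for miR-204-5p (SE 0.95) and -1.63 for miR-211-5p (SE 0.92), with 0% of 430 miRNAs called (1 at an unadjusted p under 0.05, 0 by DESeq2). Both differences rested on right lung 1: without it they were 0.80 and 0.16. In the testicle miR-204-5p was -0.44 (SE 0.21), miR-211-5p 0.82 (SE 0.51) and miR-204-3p 0.13 (SE 0.67), with 0% of 464 miRNAs called (36 at an unadjusted p under 0.05, 1 by DESeq2). Without right testicle 3 the value for miR-204-3p was -0.35. The joint test of whether the side difference varied between organs gave an edgeR adjusted p of 1 for all 4 arms, with 0% of 642 called.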

How the data were processed

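The deposited tables hold raw read counts per mature miRNA, 1 column per library, and the totals differ between libraries, as whole-number counts do. The authors extracted total RNA with spin columns and made libraries for the BGI-500 sequencer, per the labels' protocols. Build GRCm38.p6 is named in the submitters' processing notes, and for the aligner and counter the names were not given in the sources used here. Of 1431 names, 1209 matched a RefSeq mature sequence, including all 4 arms.

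Organs were compared with edgeR 4.0.16 (R 4.3.3) on all 18 libraries in 6 groups, with filterByExpr, TMM scaling and a quasi-likelihood test, and each organ contrast averaged left and right. Sides were compared on the 6 libraries of an organ. Calls used a Benjamini-Hochberg adjusted p of 0.05 over all tested miRNAs. Arm ratios used limma 3.58.1. The exact permutation tests took 1 log2 value per library. DESeq2 1.42.0 served as an alternative, with other scalings, filters, pseudocounts, sides and libraries left out. The code was tested on simulated data. The likeness rule took miRNAs averaging at least 50 CPM and named the nearest 3. The members, marker lists and rules were chosen with earlier results of these data known. Same-numbered left and right libraries did not deviate together in every organ (correlations from -0.42 to 0.39), so the numbers were not taken as pairs. Between 952608 and 2790471 counts per library limit the precision for the 3p arms.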

Additional observations from a re-analysis of the deposited data

Results flagged for a closer look

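Of 22 sets of 6 libraries examined, 3 had 1 library far from the other 5 by Dixon's criterion. For a single set of normally distributed values chance alone gives about 1 in 20. The sets are not independent, since the summed share contains miR-211-5p, and some hold few counts. The 3 flags therefore cannot show an excess over chance. In the lung, the share of miR-211-5p was 0.0342% in right lung 1, and the next highest was 0.0105%. The summed share of miR-204-5p and miR-211-5p was 0.163% in right lung 1, and the next was 0.0692%. The share of miR-204-3p was 0.000147% in left lung 2, which is 4 counts, and the next was 3.94e-05%, which is 1 count. Right lung 1 and left lung 2 were also the highest lungs for miR-184-3p. For the summed lens and cornea list, left lung 2 ranked 1 and right lung 1 ranked 5 among the lungs. The part of other ocular tissue in these values was not tested.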

How the results depend on the processing

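Of 751 alternative values for the arms, their ratios and their sum, 705 kept their direction and their side of the threshold, and of 208 counts of calls 188 stayed within 1.5 times the reported count. For miR-211-5p in lung against testicle the log2 fold change was -0.68 and -0.81 with left lung 1 and left testicle 1 as TMM reference, -0.98 with library sizes alone, -1.0 with RLE scaling, -0.36 with right libraries only, and -2.09 to -0.67 leaving out a library. With the replicate block that call held (adjusted p 0.0105). With right libraries only, miR-204-5p in eye against testicle was 1.47. The miR-204 arm ratio was then -3.20 in eye against lung and -2.75 in eye against testicle. With pseudocount 5 the miR-204 arm ratio was -0.26 in eye against lung and -1.95 in lung against testicle (adjusted p 0.0041, a call gained with the sign turned), where leaving out a library gave -0.34 to 0.76. The miR-211 arm ratio, whose 3p counts are near 0 in lung and testicle, was 4.22 in eye against lung and 3.97 in eye against testicle with pseudocount 5, and both became calls (limma adjusted p 9.7e-06 and 8.5e-06). In eye against testicle it was 1.18 by the exact permutation test (p = 0.0303), and in lung against testicle -0.25 with pseudocount 5, -0.42 with left libraries only and -0.28 to 0.59 leaving out a library. For miR-211-3p in lung against testicle, with 0 and 2 counts, leaving out a library gave fitted values of -2.94 to -1.25 that depend on the prior count and are no fold, and without right eye 3 the adjusted p was 0.0370. The cause was not tested.

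By the left libraries alone and by the right alone, the log2 ratio of miR-204-5p to miR-211-5p differed by -1.74 and -1.41 in eye against lung, -5.02 and -6.41 in eye against testicle, and -3.28 and -5.01 in lung against testicle. The summed share differed by 8.01 and 7.68, 2.90 and 2.65, and -5.12 and -5.02. With a replicate block, averaging same-numbered left and right libraries, the ratio differed by -1.57, -5.72 and -4.14 and the sum by 7.85, 2.77 and -5.07. Each of these has 3 against 3 values and an exact permutation p of 0.1, the smallest possible. The replicate block changed no call of an arm in edgeR or limma, and moved the organ counts of calls from 384, 509 and 491 to 383, 509 and 490.

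Leaving out a library gave left minus right differences of -1.90 to 0.80 for miR-204-5p and -2.09 to 0.16 for miR-211-5p in the lung, and -0.35 to 0.65 for miR-204-3p in the testicle. Among all miRNAs, 0 were called between sides with edgeR. DESeq2 called 1 in the eye and 1 in the testicle. Without the filter, edgeR called 6 in the eye, 1 in the lung and 7 for side by organ, where the adjusted p of miR-211-5p was 0.00722. Leaving out a library gave 0 to 1 calls in the eye, in the testicle and for side by organ. Hairpins called for arm ratio were 32 in eye against lung, and 7 with at least 10 counts in every library, 15 with left libraries, 2 with right libraries and 52 with pseudocount 5. They were 53 in eye against testicle, and 15, 31, 20 and 95 under these settings. They were 71 in lung against testicle, and 22, 38 and 17 under the first 3.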
